A study of Danio rerio with 24 samples.

Results

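Genes of the proteasome were followed through the first hours of zebrafish development. They were taken by name, as every array row that carried 1 gene symbol made of psm, a letter from a to g and a number. This gave 59 rows for 54 genes, out of 19298 genes with a row of their own, and where a gene had several rows the one with the highest mean signal stood for it. The naming rule used no measured change, although the genes were chosen with earlier results of these data known. Of the 54 genes, 52 code for subunits, assembly chaperones, activators or an inhibitor of the proteasome. The other 2 share only the name, since psmc3ip codes for a partner of the meiotic recombinases and psme3ip1 for a protein that binds a nuclear activator of the proteasome. Another 4 rows that list a psm gene beside other genes were left out, and psmd7, psme3, psme4a, psma2a and psmb11b were not analysed here.

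The embryos were wildtype zebrafish of the 5D strain, carrying no transgene or mutation that the labels name. They were kept in 0.1% DMSO (vehicle) or in 2 µM TDCIPP, the organophosphate flame retardant tris(1,3-dichloro-2-propyl) phosphate, from 0.75 h post-fertilization (hpf). Whole embryos were frozen at 2 hpf, during cleavage and before the embryo transcribes most of its genome, or at 6 hpf. Untreated embryos are in early gastrulation at 6 hpf. The paper reports that most embryos kept in a similar TDCIPP concentration were delayed by then. Stage and treatment can therefore not be told apart at 6 hpf. Each of the 4 groups held 3 pools of 25 embryos, and the RNA of each pool was read on 2 Zebrafish Gene 1.0 ST arrays, whose values were averaged.

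The proteasome breaks down proteins that have been tagged with ubiquitin. Its core is a barrel of alpha and beta rings, and 3 of the beta subunits cut protein chains inside it. The regulatory particle caps the barrel with a ring of ATPases that unfold the substrate, and with further subunits that bind ubiquitin chains and remove them. Dedicated chaperones assemble both parts, activators can replace the cap, and vertebrates have exchange subunits with altered cutting preference that immune cells use. An early embryo begins with proteasomes and proteasome mRNA laid down in the egg, and protein breakdown takes part in the handover from maternal to zygotic control.

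All values are log2 signals as the authors deposited them, so a difference of 1 is a 2-fold change. The authors' normalization gave all arrays nearly the same spread of signals, and a change is therefore one relative to the rest of the measured RNA, not in RNA per embryo. In these whole-embryo pools, fewer cells of a type and less RNA per cell cannot be told apart. The median signal of an array lay between 4.323 and 4.461 for the 2 hpf arrays and between 4.472 and 4.543 for the 6 hpf arrays. The times matched their labels: 10 of 11 measured maternal and egg transcripts fell from 2 to 6 hpf in DMSO embryos. All 12 zygotic gastrula genes, all 8 enveloping layer genes and 4 of 5 measured yolk syncytial layer genes rose. The counts were the same in TDCIPP embryos. The 7 measured blood and immune genes averaged 5.39 to 5.75 over the pools, 3 of them below the median gene in all pools. In DMSO embryos 1 of them rose and 2 fell: lcp1 rose by 2.54 to 8.64, and il1b averaged 7.69 at 2 hpf before its fall. Among the 6 muscle and nerve genes, 5 stayed below the median gene in all pools. The exception was actc1b, which averaged 7.04 to 7.24 over the 4 groups. From 2 to 6 hpf, elavl3 rose by 0.35 in DMSO embryos (limma adjusted p = 0.0634).

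The first comparison asked how proteasome genes change between 2 and 6 hpf. In DMSO embryos, 10 of the 54 genes rose and 19 fell from 2 to 6 hpf, and 25 did not pass the test (limma, adjusted p under 0.1 over all 61240 array rows tested). These shares, 18.5% and 35.2%, stood beside 16.1% of all genes that rose and 33.0% that fell (20.0% and 19.9% over all rows). The median change was -0.02 over the 54 genes and -0.09 over all genes. Most proteasome genes gave bright signals, and all 29 calls fell among the 48 with a mean log2 signal of at least 5, of which 20.8% rose and 39.6% fell with a median of -0.04. Of the 11561 genes of that brightness, 20.7% rose and 48.2% fell, with a median of -0.25. The genes thus did not move together: their changes ran from -1.53 for psmd10 to 1.01 for psmd11b. In TDCIPP embryos 11 genes rose and 19 fell, with a median of -0.07, against 17.0% and 32.5% of all genes, 20.7% and 19.5% of all rows, and 21.4% and 48.2% of the genes of at least that brightness. Both sets of embryos shared 9 genes that rose and 17 that fell, and none of the 54 was called in opposite directions. The overlap between treatments was not counted over all genes, so it is not shown to be particular to these. The split depended on the scaling of the arrays: with each array centred on its median, 6 genes rose and 23 fell in DMSO embryos, and 9 rose and 24 fell in TDCIPP embryos. The split over all rows moved the same way, and 14.4% of them then rose and 29.1% fell in DMSO embryos, with 13.9% and 28.3% in TDCIPP embryos. After renewed quantile normalization 12 of the genes rose and 18 fell in DMSO embryos, and 14 and 16 in TDCIPP embryos. The split over all rows then moved the other way. In DMSO embryos 10677 rows rose and 15132 fell, against 12264 and 12178 before. In TDCIPP embryos 10780 rose and 14474 fell, against 12705 and 11954.

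**Figure D1:**
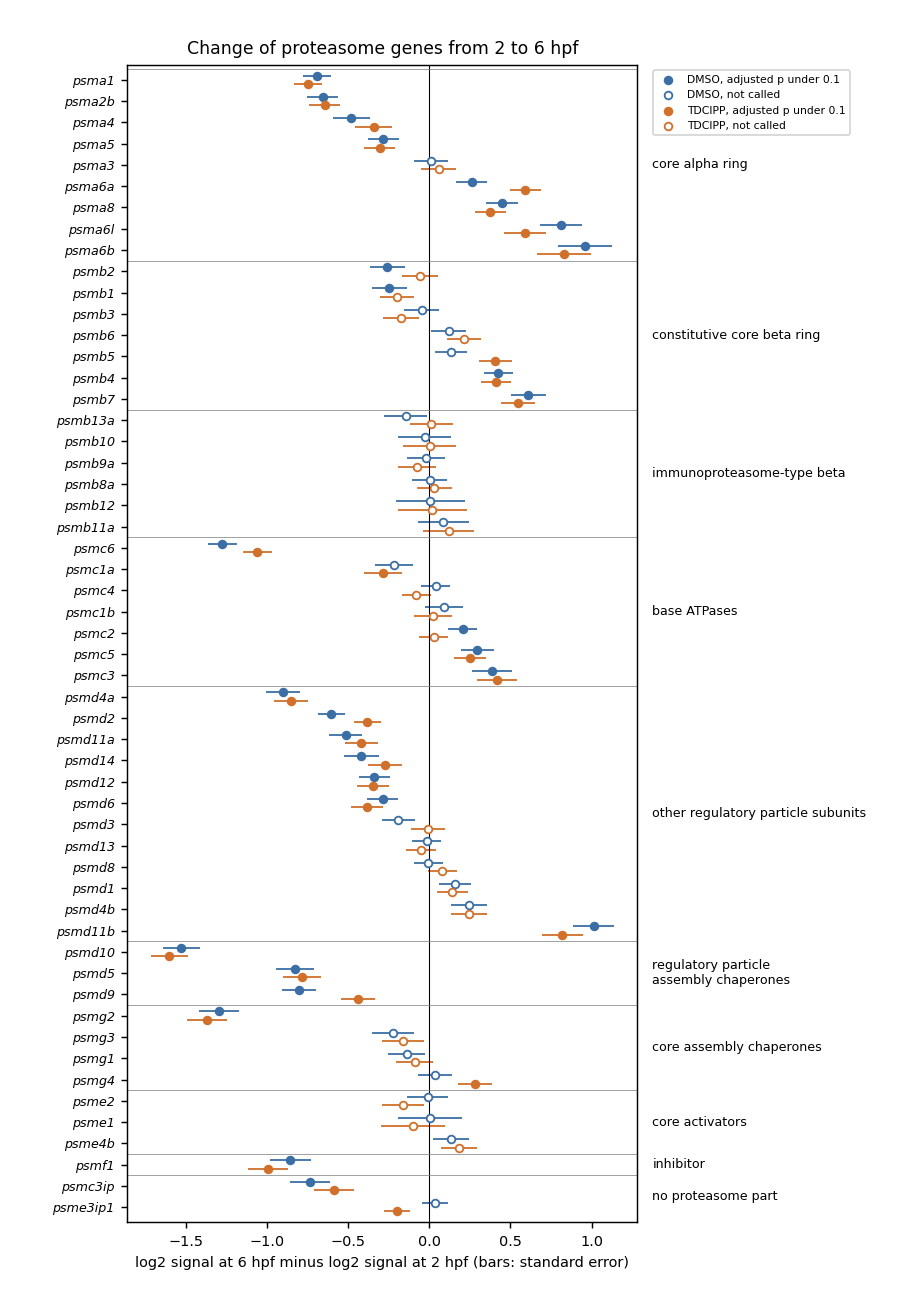
Change of each of the 54 genes from 2 to 6 hpf (horizontal axis, log2 signal at 6 hpf minus 2 hpf) in DMSO (blue) and TDCIPP (orange) embryos, grouped by role. Bars are standard errors of the fit and filled points passed an adjusted p under 0.1. All 3 regulatory particle chaperones lie left of 0, the core rings hold genes on both sides, and the 6 immunoproteasome-type genes lie near 0.

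The assembly chaperones held both of the largest falls, those of psmd10 and psmg2. Psmd10, psmd9 and psmd5 each escort a part of the ATPase ring into place, and all 3 fell in both treatments. Of all genes with a mean signal of at least 5, 48.2% fell in each treatment. Psmd10 had signals of 7.46, 7.28 and 7.61 in the 3 DMSO pools at 2 hpf and 6.13, 5.85 and 5.79 at 6 hpf. In TDCIPP pools the signals were 7.64, 7.56 and 7.65 at 2 hpf and 5.98, 5.94 and 6.13 at 6 hpf. No pool at 6 hpf reached any pool at 2 hpf, and the signal was 2.88-fold lower at 6 hpf in DMSO embryos (log2 difference -1.53, SE 0.11, limma adjusted p = 1.12e-07) and 3.04-fold lower in TDCIPP embryos (adjusted p = 7.24e-08). Psmd5 fell by 0.83 in DMSO embryos (SE 0.12) and psmd9 by 0.80 (SE 0.10).

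The chaperones of the core did not share this pattern. Psmg1 and psmg2 form a pair that starts the alpha ring, and psmg3 and psmg4 form another. Psmg2 signals were 6.89, 6.78 and 7.16 at 2 hpf and 5.66, 5.57 and 5.70 at 6 hpf in DMSO pools. In TDCIPP pools they were 7.05, 7.30 and 7.11 at 2 hpf and 5.71, 5.99 and 5.65 at 6 hpf. The times did not overlap in either treatment, and psmg2 was 2.46-fold lower at 6 hpf in DMSO embryos (log2 difference -1.30, SE 0.12, adjusted p = 1.21e-06, limma). Its partner psmg1 differed by -0.14 (SE 0.11) and psmg3 by -0.22 (SE 0.13) in DMSO embryos, and neither passed the test. Psmg4 differed by 0.03 in DMSO embryos and rose by 0.28 in TDCIPP embryos (limma adjusted p = 0.0581), although its change was not called different between the treatments (limma unadjusted p = 0.128).

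In the alpha ring, which gates the barrel, 4 of 9 genes rose, 4 fell and psma3 did not pass the test, in both treatments. Rises and falls were thus 44.4% each. Of all genes with a mean signal of at least 5, 20.7% rose and 48.2% fell in DMSO embryos, and 21.4% and 48.2% in TDCIPP embryos. The falls in the ring were those of psma1 (-0.69 in DMSO embryos, SE 0.09), psma2b (-0.66, SE 0.10), psma4 (-0.48) and psma5 (-0.28). A left-out row shared by psma2a and psma2b (mean signal 6.62) differed by only -0.16 in DMSO and -0.19 in TDCIPP embryos. It was not called in either. The rises came from all 3 genes with the psma6 name and from psma8, which in mammals is a testis form of an alpha subunit. Psma6b had DMSO signals of 5.13, 5.39 and 5.55 at 2 hpf and 6.58, 6.49 and 5.87 at 6 hpf, and TDCIPP signals of 5.50, 5.30 and 5.57 at 2 hpf and 6.36, 6.22 and 6.29 at 6 hpf. Every 6 hpf pool lay above every 2 hpf pool, although DMSO pool 3 at 6 hpf sat well below the other 2, and the rise was 1.94-fold in DMSO embryos (log2 difference 0.96, SE 0.17, limma adjusted p = 3.87e-04).

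Psma6l rose from 6.0, 6.0 and 5.71 to 6.98, 6.58 and 6.58 in DMSO pools, which did not overlap. In TDCIPP pools it went from 5.99, 5.99 and 5.97 at 2 hpf to 6.69, 6.39 and 6.64. The difference was 0.81 (SE 0.13) in DMSO and 0.59 (SE 0.13) in TDCIPP embryos. Psma6l is uncertain because its 3 rows disagreed. The second row rose by 0.81 in DMSO embryos and the third, which had a mean signal of 4.95, fell by 0.43 (limma adjusted p = 0.0907). Psma8 moved from 7.96, 8.16 and 8.15 at 2 hpf to 8.58, 8.63 and 8.40 at 6 hpf in DMSO pools and from 8.10, 8.21 and 8.05 to 8.55, 8.45 and 8.48 in TDCIPP pools. Its pools did not overlap either, and the difference was 0.45 in DMSO embryos (SE 0.10, adjusted p = 0.00212, limma). Psma6a rose by 0.26 in DMSO and by 0.59 in TDCIPP embryos.

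**Figure D2:**
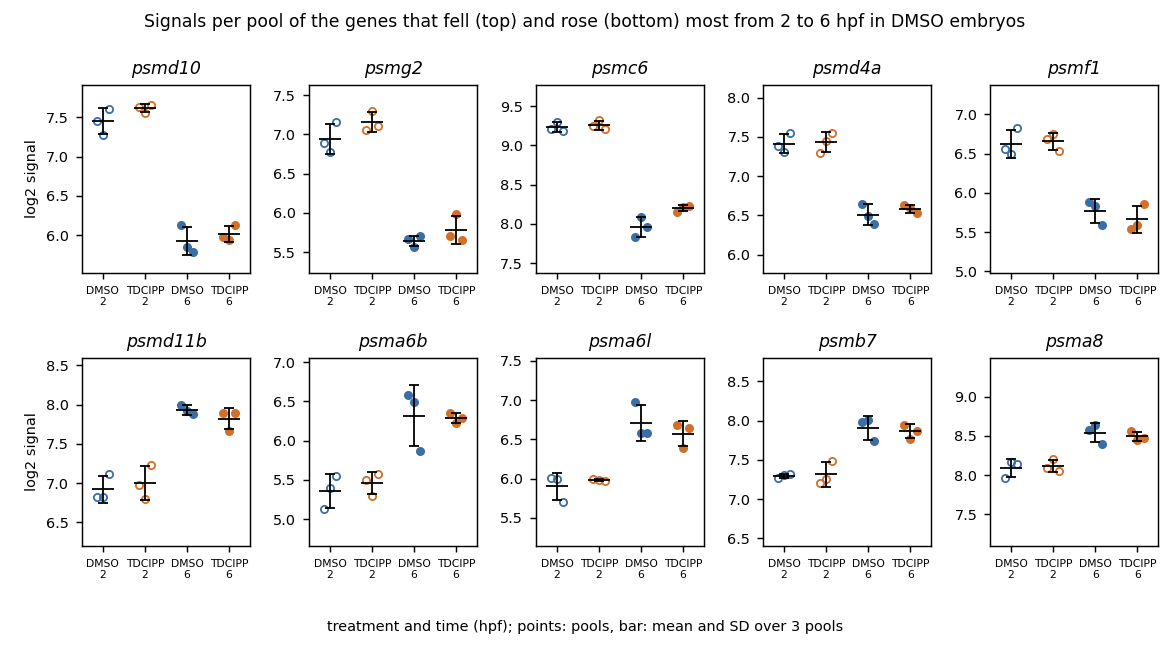
Log2 signal (vertical axis, each panel 2.4 units high) in each pool of the 5 genes that fell most (top) and the 5 that rose most (bottom) in DMSO embryos, by treatment and time (horizontal axis). Points are pools and bars give the mean and SD over 3 pools. In every panel the 2 and 6 hpf pools of a treatment are apart. DMSO and TDCIPP pools of a time overlap, except those of psmc6 at 6 hpf.

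The beta ring holds the cutting sites, that of psmb5 acting after hydrophobic residues, that of psmb6 after acidic ones and that of psmb7 after basic ones. Psmb7 had DMSO signals of 7.27, 7.30 and 7.32 at 2 hpf and 7.98, 8.01 and 7.73 at 6 hpf, and TDCIPP signals of 7.20, 7.25 and 7.49 at 2 hpf and 7.95, 7.77 and 7.87 at 6 hpf. It was higher in every 6 hpf pool and rose 1.53-fold in DMSO embryos (log2 difference 0.61, SE 0.11, limma adjusted p = 3.61e-04). Psmb5 signals were 8.56, 8.39 and 8.34 at 2 hpf and 8.59, 8.65 and 8.45 at 6 hpf in DMSO pools, which overlapped. In TDCIPP pools they were 8.56, 8.38 and 8.30 at 2 hpf and 8.77, 8.85 and 8.85 at 6 hpf, with all 6 hpf pools higher. The psmb5 difference was 0.13 in DMSO embryos, which did not pass the test, and 0.41 in TDCIPP embryos, which did (limma adjusted p = 0.0052). The difference between these changes was 0.27 (SE 0.14, unadjusted p = 0.0736, limma) and was not called.

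Psmb6 signals were 6.97, 7.21 and 7.14 at 2 hpf and 7.39, 7.19 and 7.09 at 6 hpf in DMSO pools. In TDCIPP pools they were 6.91, 7.12 and 7.05 at 2 hpf and 7.17, 7.22 and 7.33 at 6 hpf. The DMSO pools overlapped and the TDCIPP pools did not. Psmb6 was not called in either treatment (0.12 and 0.21), and its DMSO value changed sign when each array was centred on its median. Of the structural beta subunits, psmb4 rose by 0.43 in DMSO embryos (SE 0.09; its dimmer second row by 0.25), psmb1 and psmb2 fell by 0.25 and 0.26, and psmb3 did not pass the test. With the replicate number as a block, psmb1 was not called in DMSO embryos (limma adjusted p = 0.126). Psmb1 and psmb2 were not called in TDCIPP embryos, where the differences were -0.20 and -0.06.

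The immunoproteasome-type genes stayed low or flat. In mammals, psmb8, psmb9 and psmb10 replace the 3 cutting subunits in immune cells, and psmb11 is an exchange subunit of the thymus. Psmb8a signals ran from 2.39 to 2.71 over all 12 pools, those of psmb13a from 3.13 to 3.69 and those of psmb11a from 2.89 to 3.61. These 3 ranges lie below every array's median signal. Psmb12 ran from 4.27 to 5.23 and psmb9a from 4.90 to 5.28, around or above the array medians. Both stayed below the median gene, which read 5.52 to 5.67 over the pools. Psmb10 ran from 5.93 to 6.59, above the array medians and the median gene.

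None of the 6 genes was called between the times or between the treatments, their changes in DMSO embryos lying between -0.15 and 0.09. In DMSO pools psmb9a read 5.0, 5.28 and 5.09 at 2 hpf and 5.08, 5.27 and 4.95 at 6 hpf. Psmb12 read 4.54, 4.63 and 4.89 at 2 hpf and 4.90, 4.50 and 4.68 at 6 hpf. The times overlapped for both genes. Psmb11a, the thymus type, read 3.16, 3.43 and 2.89 at 2 hpf and 3.22, 3.29 and 3.23 at 6 hpf, and psmb13a read 3.50, 3.52 and 3.33 at 2 hpf and 3.45, 3.26 and 3.19 at 6 hpf, again with overlap. In the same pools, psmb8a read 2.50, 2.61 and 2.39 at 2 hpf and 2.68, 2.44 and 2.40 at 6 hpf, which overlap. Psmb10, the brightest row of the 6, read 6.12, 6.59 and 6.05 at 2 hpf and 6.42, 6.32 and 5.93 at 6 hpf. These ranges overlap as well. Each of the 6 changes in DMSO embryos took the opposite sign under at least 1 other processing. By the RefSeq gene order, psmb8a, psmb9a, psmb12 and psmb13a are neighbours in the genome, as are psmb5 and psmb11a.

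The 7 ATPase genes, of which psmc1a and psmc1b are paralogues, moved in different directions although the ATPases form 1 ring. Psmc6 read 9.21, 9.30 and 9.19 at 2 hpf and 7.83, 8.08 and 7.97 at 6 hpf in DMSO pools. In TDCIPP pools it read 9.25, 9.32 and 9.21 at 2 hpf and 8.15, 8.22 and 8.23 at 6 hpf. The times did not overlap, and psmc6 was 2.42-fold lower at 6 hpf in DMSO embryos (log2 difference -1.27, SE 0.09, limma adjusted p = 6.24e-08) and 2.08-fold lower in TDCIPP embryos. In DMSO embryos psmc3 rose by 0.38 (its dimmer second row differed by 0.16 and was not called), psmc5 by 0.30 and psmc2 by 0.21, and psmc1a, psmc1b and psmc4 did not pass the test. The psmc2 call was lost with the replicate number as a block (limma adjusted p = 0.112). In TDCIPP embryos psmc3 and psmc5 rose, psmc6 and psmc1a fell, and psmc2 had a difference of 0.03.

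Of the 12 other genes of the regulatory particle, 1 rose and 6 fell in each treatment. Among all genes with a mean signal of at least 5, 20.7% rose and 48.2% fell in DMSO embryos. The shares in TDCIPP embryos were 21.4% and 48.2%. The 6 falls of 12 were thus near the share of all such genes. Psmd4a, a ubiquitin receptor of the cap, read 7.38, 7.31 and 7.55 at 2 hpf and 6.65, 6.49 and 6.39 at 6 hpf in DMSO pools, and 7.29, 7.45 and 7.55 at 2 hpf and 6.63, 6.59 and 6.53 at 6 hpf in TDCIPP pools. All 6 hpf pools were lower, 1.87-fold in DMSO embryos (log2 difference -0.90, SE 0.10, adjusted p = 8.40e-06, limma). Psmd14, the deubiquitinase that clips ubiquitin chains off the substrate, fell by 0.42 in DMSO embryos (SE 0.11). Psmd2, a large scaffold subunit of the base, fell by 0.60 (SE 0.08), but a second psmd2 row with a mean signal of 10.2 differed by only -0.13 and was not called. The lid subunits psmd11a, psmd12 and psmd6 fell by 0.52, 0.34 and 0.29. Psmd1, psmd3, psmd8 and psmd13 were not called in either treatment.

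Psmd11b was the only gene of this class that rose. It read 6.82, 6.83 and 7.12 at 2 hpf and 8.0, 7.91 and 7.89 at 6 hpf in DMSO pools. In TDCIPP pools it read 6.97, 6.80 and 7.23 at 2 hpf and 7.90, 7.67 and 7.89 at 6 hpf. All 6 hpf pools were higher, 2.02-fold in DMSO embryos (log2 difference 1.01, SE 0.12, adjusted p = 1.61e-05, limma) and 1.76-fold in TDCIPP embryos.

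Psmd11b and psmd11a are paralogues for 1 lid subunit, and several other subunits also have a pair of genes. The signal of one paralogue minus that of the other was taken in each pool, over 6 pools per time, and is given as a description with no test, since the genes' own changes fix much of it. For psmd11b minus psmd11a it lay between -2.07 and -1.6 in the 2 hpf pools and between -0.68 and -0.23 in the 6 hpf pools, a shift of 1.53 in DMSO and 1.24 in TDCIPP embryos. For psmd4b minus psmd4a it lay between -1.47 and -1.02 in the 2 hpf pools and between -0.26 and 0.02 in the 6 hpf pools, a shift of 1.15 in DMSO and 1.09 in TDCIPP embryos. The times did not overlap for either pair. Psmd4b itself differed by 0.25 in DMSO embryos, which was not called (limma adjusted p = 0.108), and was called with the replicate number as a block (limma adjusted p = 0.0944).

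The other 3 pairs overlapped between the times. The shift of psma6b against psma6a was 0.70 in DMSO and 0.24 in TDCIPP embryos, and that of psma6l against psma6a was 0.55 and -0.002. Psmc1b against psmc1a shifted by 0.31 in both. Probes for near-identical genes can bind each other's RNA, so the pairs are uncertain, and a level cannot be set against another gene's. The part of unequal probe response in these shifts was not tested.

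**Figure D3:**
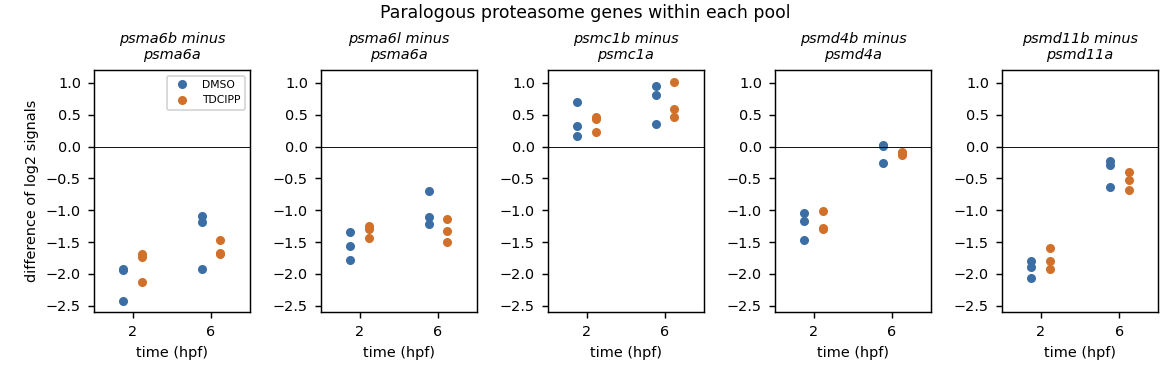
Log2 signal of one paralogue minus that of the other (vertical axis) within each pool at 2 and 6 hpf (horizontal axis), for 5 pairs. Each point is a pool of DMSO (blue) or TDCIPP (orange) embryos. The psmd4 and psmd11 panels separate fully by time, while both psma6 panels and the psmc1 panel overlap.

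The regulators of the core split as well. Psmf1, which binds the core and inhibits it in vitro, read 6.57, 6.49 and 6.83 at 2 hpf and 5.89, 5.83 and 5.60 at 6 hpf in DMSO pools, and 6.68, 6.75 and 6.54 at 2 hpf and 5.54, 5.59 and 5.86 at 6 hpf in TDCIPP pools. It was lower in every 6 hpf pool, 1.81-fold in DMSO embryos (log2 difference -0.86, SE 0.12, adjusted p = 7.99e-05, limma). The activator genes psme1 and psme2, whose products join in 1 ring in mammals, stayed below the array medians in all 12 pools (2.85 to 3.76 and 2.57 to 3.18). Psme4b, of the large activator family, differed by 0.13 in DMSO and 0.18 in TDCIPP embryos. None of the 3 was called.

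The 2 genes outside the proteasome complete the account. Psmc3ip read 8.40, 8.81 and 8.49 at 2 hpf and 7.92, 7.94 and 7.65 at 6 hpf in DMSO pools, and 8.63, 8.76 and 8.54 at 2 hpf and 8.17, 7.99 and 8.01 at 6 hpf in TDCIPP pools. Its times did not overlap and it fell by 0.74 in DMSO embryos (SE 0.12, limma adjusted p = 2.68e-04). Psme3ip1 read 6.85, 6.85 and 6.98 at 2 hpf and 6.94, 6.96 and 6.88 at 6 hpf in DMSO pools, and 6.90, 6.89 and 6.96 at 2 hpf and 6.76, 6.73 and 6.66 at 6 hpf in TDCIPP pools. Its DMSO pools overlapped and its TDCIPP pools did not, where it fell by 0.20 (limma adjusted p = 0.0795), a call that was lost with the replicate number as a block (adjusted p = 0.107).

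Other multi-subunit complexes gave a scale for this mixed pattern in DMSO embryos. Of 65 cytosolic ribosomal protein genes, 60 rose and 1 fell (92.3% and 1.5%), with a median change of 0.75. Of 67 mitochondrial ribosomal protein genes, 5 rose and 51 fell (7.5% and 76.1%), with a median of -0.67. Of the 8 subunits of the cytosolic chaperonin, 1 rose and 1 fell (12.5% each), with a median of -0.04. These stood beside 16.1% of all genes that rose and 33.0% that fell. The middle of the proteasome genes' changes was near that of the chaperonin, with an interquartile range from -0.40 to 0.13. No test was made between the complexes.

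**Figure D4:**
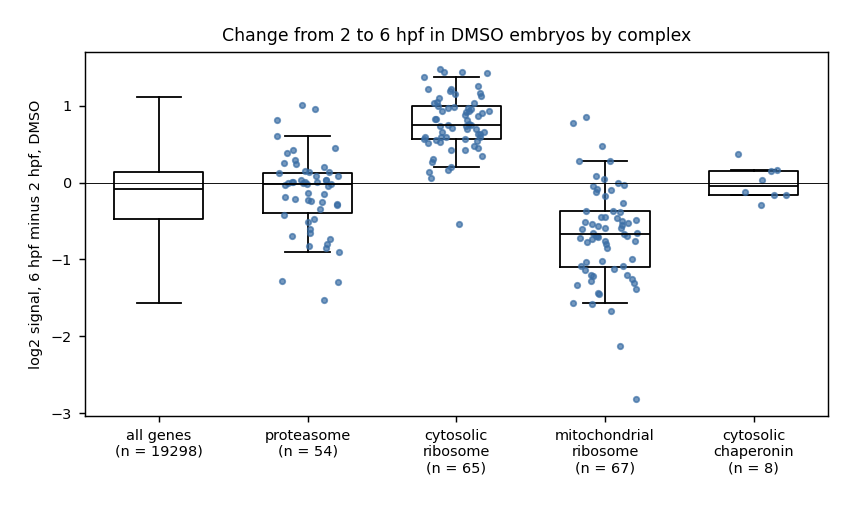
Change from 2 to 6 hpf in DMSO embryos (vertical axis, log2) for all genes and for the genes of 4 complexes. Boxes give quartiles and the median, whiskers the 5th and 95th percentiles, and each point is a gene (none are drawn for all genes). Cytosolic ribosomal genes lie mostly above 0, mitochondrial ones mostly below, and proteasome genes on both sides.

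Genes around the proteasome were counted in the same way. Of 39 listed partners of the ubiquitin-proteasome pathway, 32 had a row of their own, of which 8 rose and 13 fell in DMSO embryos (25.0% and 40.6%, median -0.05), beside 16.1% and 33.0% of all genes and 20.7% and 48.2% of those with a mean signal of at least 5. The gene with the smallest p was ubb, which codes for ubiquitin. It read 7.46, 7.93 and 7.63 at 2 hpf and 9.83, 9.94 and 9.79 at 6 hpf in DMSO pools, with no overlap, a rise of 2.18 (SE 0.16, limma adjusted p = 8.53e-08). Rps27a, which codes for ubiquitin fused to a ribosomal protein and is also among the ribosomal genes above, rose by 0.54. The ubiquitin ligase gene ube3c fell by 1.15 and the conjugating enzyme gene ube2d3 by 1.13.

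Some partners were named for their roles at the particle or in the control of its genes, and other called partners were not. Pomp, the core maturation factor, rose by 0.41 and sem1, a small lid subunit, by 0.64. The deubiquitinases uchl5 and usp14, which dock on the cap, fell by 0.80 and 0.41, and ecpas, which in yeast and mammals holds core and cap together, fell by 0.84. Nfe2l1a and nfe2l1b, counterparts of the mammalian factor that drives proteasome genes when the proteasome is inhibited, differed by 0.05 and 0.06 and were not called. The nfe2l1a signal averaged 4.43 to 4.61 over the groups, near the array medians, where the signal may not follow the RNA. Of the 32 partners, none was called between treatments at 2 or 6 hpf.

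The second comparison asked whether TDCIPP changed proteasome genes at a given time. At 6 hpf none of the 54 genes was called, nor was any of the 61240 rows (0%, limma on pool means), and the smallest adjusted p of the 54 was 0.856. Other fits called some rows (25 higher and 27 lower in limma with pools as random effects, 39 higher and 29 lower by the one-way test of the methods over arrays), and none of these was a row of the 54 genes. That one-way test counted the 2 arrays of a pool as separate samples. The paper does report transcripts affected at 6 hpf, from an analysis of variance. The signal was higher in TDCIPP embryos for 35 genes and lower for 19, with a median difference of 0.05 (all genes 0.02). The median of the 54 genes was 0.02 without DMSO pool 3 and 0.02 without TDCIPP pool 1. Of all 19298 genes, 10598 were higher and 8700 lower. Of the 11561 with a mean signal of at least 5, 6617 were higher and 4944 lower. By 95% intervals, 52 of the 54 differences lay within 0.5 of 0, the bounds running from -0.46 to 0.58. A 2-fold change in signal was thus outside the interval of every gene. For genes below the array medians, such as psmb8a (mean signal 2.54), the signal may not follow the RNA.

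At an unadjusted p under 0.05, 4 genes were higher and 0 lower, against 3.37% and 2.00% of all genes. The pools of the treatments did not overlap for 9 genes that were higher and 3 that were lower, against 7.26% and 4.41%. Psmd9, a chaperone of the ATPase ring, read 6.30, 6.38 and 6.32 in DMSO and 6.75, 6.64 and 6.49 in TDCIPP pools at 6 hpf. All 3 TDCIPP pools were higher, by 0.29 on average (95% interval 0.06 to 0.53, limma adjusted p = 0.856). At 2 hpf its pools overlapped, with 7.04, 7.31 and 7.04 in DMSO and 7.14, 7.09 and 6.96 in TDCIPP pools. It fell between the times in both treatments, by 0.44 in TDCIPP and 0.80 in DMSO embryos, and the difference of 0.36 was not called (unadjusted p = 0.0283, limma).

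The next genes in order of p were psmb5 and psmb2. Psmb5, whose pool values at 6 hpf stand above, was higher in all 3 TDCIPP pools by 0.26 (95% interval 0.03 to 0.48). Psmb2, a structural beta subunit, read 8.74, 8.84 and 8.71 in DMSO and 9.04, 8.99 and 8.95 in TDCIPP pools at 6 hpf. These did not overlap, and the difference was 0.23 (95% interval 0.01 to 0.44). At 2 hpf psmb2 read 9.26, 8.93 and 8.87 in DMSO and 9.17, 8.97 and 9.0 in TDCIPP pools, which overlapped. Psmc6 was the fourth at this level, with a difference of 0.24, and all 3 TDCIPP pools lay above the DMSO pools at 6 hpf.

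Fewer genes were lower in TDCIPP embryos. Psme3ip1 was lower in all 3 TDCIPP pools at 6 hpf, by 0.21 on average (95% interval -0.42 to 0.00096, limma adjusted p = 0.913). Psmc2 read 7.73, 7.58 and 7.62 in DMSO and 7.58, 7.45 and 7.37 in TDCIPP pools at 6 hpf. The groups barely separated, the nearest pools reading 7.583 and 7.578, and the difference was -0.18. At 2 hpf psmc2 read 7.46, 7.38 and 7.48 in DMSO and 7.40, 7.51 and 7.41 in TDCIPP pools, which overlapped. The difference for psmd11b was -0.11 at 6 hpf, and its pools overlapped. The psmc2 and psmd11b differences changed sign when the second array of each pool was used alone.

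**Figure D5:**
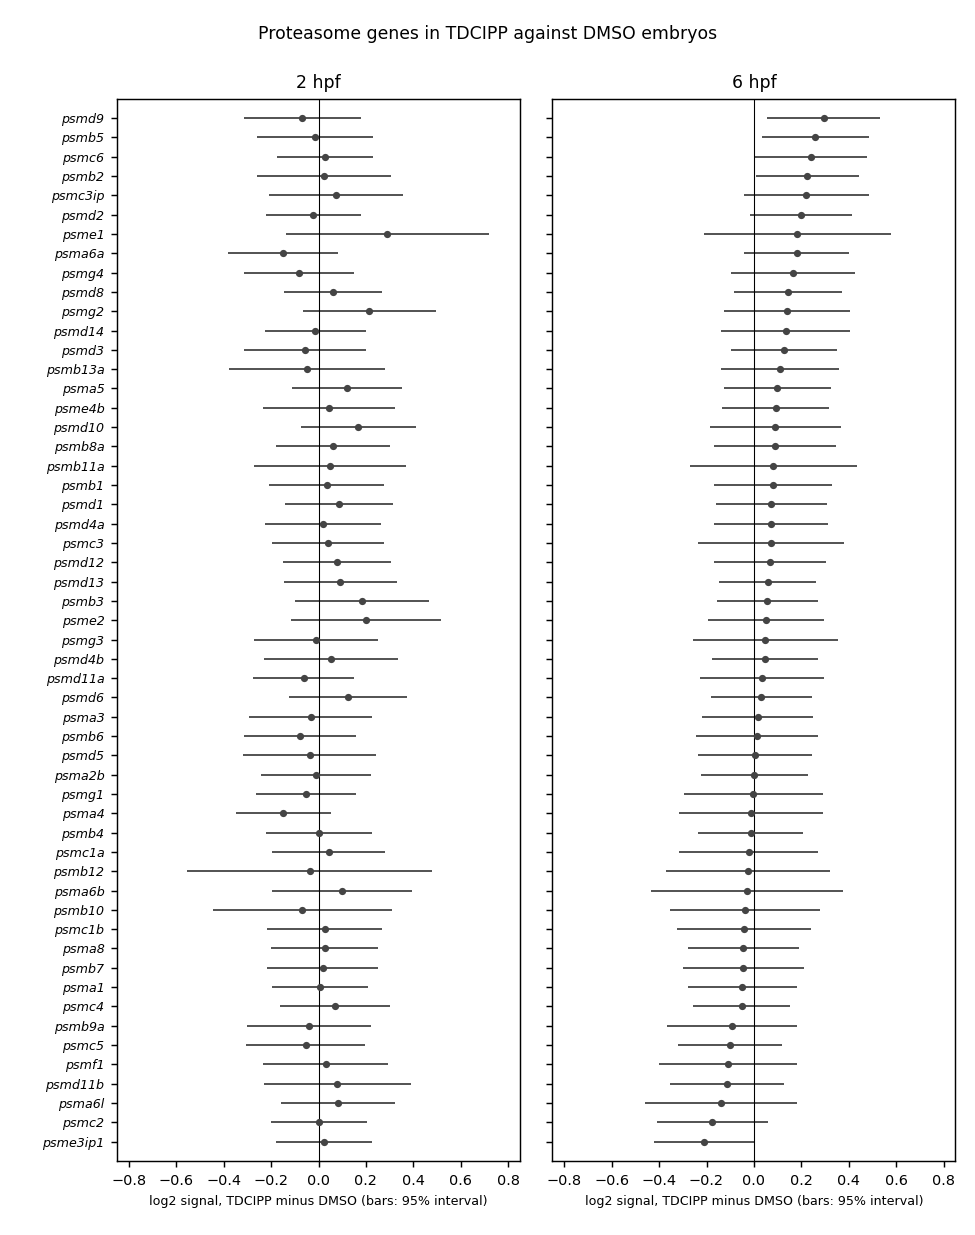
Difference in log2 signal between TDCIPP and DMSO embryos (horizontal axis) for the 54 genes at 2 hpf (left) and 6 hpf (right), ordered by the 6 hpf difference. Points are differences of means over 3 pools and bars 95% intervals from limma. No gene was called at either time, and 4 intervals at 6 hpf and 0 at 2 hpf lie wholly on one side of 0.

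The enveloping layer list averaged 9.49 to 9.75 in DMSO and 9.8 to 10.07 in TDCIPP pools at 6 hpf, with all 8 genes higher. The maternal list averaged 7.67 to 8.0 and 7.91 to 8.1, with 6 of 11 genes higher. The zygotic gastrula list averaged 8.93 to 9.41 and 9.08 to 9.23, with 6 of 12 genes higher. The yolk syncytial layer list averaged 6.54 to 6.9 and 6.61 to 6.9, with 4 of 5 genes higher. None of the genes in these lists was called between the treatments, and the part of tissue makeup or of stage in the 6 hpf differences was not tested.

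At 2 hpf, 0 of the 54 genes and 0 of the 61240 rows were called (0%, limma), and 0 genes had an unadjusted p under 0.05, against 0.803% of all genes higher and 1.25% lower. Signals were higher in TDCIPP embryos for 34 genes and lower for 20, with a median difference of 0.03. Of all 19298 genes, 10172 were higher and 9125 lower (median 0.01). Of the 11561 with a mean signal of at least 5, 6784 were higher and 4777 lower (median 0.02). The pools did not overlap for 0 genes that were higher and for 1 that was lower, against 2.93% and 3.14% of all genes. That gene was psma4, which read 8.26, 8.28 and 8.21 in DMSO and 8.12, 8.16 and 8.02 in TDCIPP pools at 2 hpf. At 6 hpf it read 7.92, 7.86 and 7.52 in DMSO and 7.88, 7.77 and 7.62 in TDCIPP pools. It was lower by 0.15 at 2 hpf (95% interval -0.35 to 0.05) and its pools overlapped at 6 hpf. Psma6a read 7.56, 7.33 and 7.48 in DMSO and 7.24, 7.42 and 7.26 in TDCIPP pools at 2 hpf. At 6 hpf it read 7.68, 7.68 and 7.80 in DMSO and 7.83, 7.90 and 7.97 in TDCIPP pools. It was lower by 0.15 at 2 hpf and higher by 0.18 at 6 hpf. Psmg2 and psmd10, with the smallest p among the higher genes, differed by 0.21 and 0.17, and their pools overlapped.

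The third comparison asked whether the change from 2 to 6 hpf differed between TDCIPP and DMSO embryos. None of the 54 genes and none of the 61240 rows was called (0%, limma, all 12 pools). At an unadjusted p under 0.05, 2 genes had a more positive change in TDCIPP embryos and 0 a more negative one, against 2.16% and 1.50% of all genes. They were psma6a (difference 0.33, 95% interval 0.04 to 0.62) and psmd9 (0.36, 95% interval 0.05 to 0.68). For the 54 genes the median difference was 0.01 and the 95% intervals ran from -0.71 to 0.68. The 3 genes called in DMSO embryos only (psmc2, psmb1 and psmb2) and the 4 called in TDCIPP embryos only (psmb5, psmg4, psmc1a and psme3ip1) were therefore not shown to differ between the treatments.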

How the data were processed

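The 24 arrays were 12 RNA pools read on 2 arrays each, mapped to 4 groups by the sample labels. The deposited log2 signals were made by the authors in Affymetrix Expression Console (version not given) at the gene level with Robust Multichip Analysis (RMA), a method of background correction, quantile normalization and probe summary. The arrays were designed on an older zebrafish genome build, and the submitters' notes also name GRCz10. Of 75212 rows, 13972 with IDs below the first annotated one were left out and 61240 were tested, with no filter on low signal. Of the 54 genes, 48 had a mean log2 signal of at least 5. Symbols came from the platform annotation: 20856 rows had 1 symbol, 805 several and 39579 none.

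Arrays of a pool were averaged, since they read 1 RNA. limma 3.58.1 in R 4.3.3 (lmFit, eBayes, two-sided) was fitted over all tested rows with Benjamini-Hochberg adjustment, on the 6 pools of a time for TDCIPP against DMSO and on all 12 pools for changes over time. The fits were also run on simulated data with planted changes. The simulated noise was independent in each pool, without the shared deviations of same-numbered pools given below. Pools come from separate beakers, and p-values measure the spread between them. With 3 pools per group, precision is limited by their number. Pools with the same replicate number deviated together within a time (correlations over 11561 genes 0.132 to 0.5, other pairs -0.325 to 0.034) and the number was also used as a block. Between the times, the correlations of a treatment's same-numbered pools were -0.039 to 0.176, so the number was not shown to link pools across times. The number is the only link between them that the labels give. For changes over time, the block gave each number 1 effect shared by pools of both times. Calls gained or lost with this block therefore rest on a link that was not shown.

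Alternatives were this block, a random pool effect, arrays taken as samples, the first or the second array alone, a test as in the study's methods, another pooling of the spread, trend and robust options, renewed quantile normalization, centring arrays on their medians, a minimum mean signal of 5, rows with 1 symbol only, every row, the mean of a gene's rows, a threshold of 0.05 and leaving out each pool. Values per pool are given for the 5 called genes that rose and the 5 that fell most in DMSO embryos, the genes with the smallest p per direction between treatments (3 at 6 hpf, 2 at 2 hpf), the catalytic and immunoproteasome-type genes and the genes outside the proteasome. The differences between paralogues were added after the values were seen. The genes, lists and tests were chosen with earlier results of these data known. Figures were drawn with matplotlib.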

Additional observations from a re-analysis of the deposited data

How the results depend on the processing

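No called gene changed sign under any alternative. Of 29 genes called in DMSO embryos, 20 (6 that rose and 14 that fell) were called under every alternative, and 19 of 30 in TDCIPP embryos. This count was not made over all genes. With each array centred on its median, 6 genes rose in DMSO embryos in place of 10, and the median change of the 54 genes was -0.149 in DMSO and -0.207 in TDCIPP embryos. The median over all rows moved from 0.01 to -0.11 under this centring. With the replicate block, 10 genes rose and 18 fell in DMSO embryos and 11 and 18 in TDCIPP embryos, and besides psmb1, psmc2, psmd4b and psme3ip1 it changed no call. Over all 61240 rows, 12303 then rose and 12333 fell in DMSO embryos, against 12264 and 12178 without the block. In TDCIPP embryos 12713 rose and 12092 fell, against 12705 and 11954. Leaving out a pool gave 7 to 10 genes that rose and 16 to 20 that fell in DMSO embryos. Over all rows it gave 10844 to 12278 that rose and 11228 to 12156 that fell. No alternative called any of the 54 genes between treatments or for a difference of changes.

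Several small differences that had not passed the test changed sign. With the second array of each pool alone, psmc2 at 6 hpf was 0.020, psmd11b at 6 hpf 0.051, psma6a at 2 hpf 0.049 (TDCIPP minus DMSO) and the psmb8a change in DMSO embryos -0.149, while psmb13a fell by 0.346 (limma adjusted p = 0.0886). With the first array alone, changes in DMSO embryos were -0.112 (psme3ip1), 0.053 (psmb13a), -0.051 (psmb12), 0.021 (psmb9a), -0.180 (psmb11a) and 0.105 (psmb10). After renewed quantile normalization they were -0.060 (psmb8a), -0.126 (psmb12) and -0.005 (psmb11a). After centring they were -0.095 (psme3ip1), -0.126 (psmb8a), -0.123 (psmb12), -0.042 (psmb11a) and -0.009 (psmb6). Leaving out a pool gave ranges in DMSO embryos of -0.084 to 0.057 (psmb8a), -0.096 to 0.106 (psmb12), -0.107 to 0.057 (psmb9a), -0.047 to 0.223 (psmb11a) and -0.132 to 0.141 (psmb10). The cause of these shifts was not tested.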
